A study of Mus musculus with 16 samples.

Results

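Interferon-stimulated genes are the genes that cells switch on when interferon reaches them. The set described here was fixed as 34 mouse symbols and holds RNA and nucleic acid sensors, transcription factors, the OAS, IFIT and Mx families, the ISG15 system and other antiviral effectors. All 34 were among the 25562 genes of the RNA count table, and 33 passed the filter on low counts and were tested. For ATAC-seq, which cuts open chromatin with a transposase, the members are the 59 of 40796 regions whose deposited gene identifier is that of one of these genes.

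The study sorted monocytes from the spleens of wild-type C57BL/6 mice at 7 days of age by how much of the receptor Nrp1 (neuropilin-1, which binds semaphorins and VEGF) they carried, into Nrp1 high and Nrp1 low cells. RNA was read from 3 Nrp1 high and 3 Nrp1 low libraries of 80000 cells each (mice given as C57BL/6J), and ATAC-seq was made from 5 Nrp1 high and 5 Nrp1 low samples of 50000 cells each. The labels give the genotype as wild type and name no treatment, and the markers of the sort other than Nrp1 are not stated. The study asked how the Nrp1 high monocytes of newborns differ from the others. The labels call the cells myeloid-derived suppressor cells. They speak of pooled RNA and name no animal for a library, so the p-values below take in only the variation between these libraries, part or all of which may be technical.

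Type I interferons bind the receptor made of Ifnar1 and Ifnar2, whose kinases Tyk2 and Jak1 phosphorylate STAT proteins, Stat2 among them. With Irf9, Stat2 is part of the complex ISGF3, which binds the interferon-stimulated response element in the promoters of target genes. The products sense viral RNA, block its translation, degrade it or stop entry and budding, and several of them (Irf7, Stat2, Irf9) feed the response itself. Monocytes are known both to carry a basal level of this programme and to raise it sharply on exposure to interferon.

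The promoters of the set were searched for the core of that element, GAAANNGAA, or its reverse complement TTCNNTTTC, from 250 bases before to 50 bases after each start in RefSeq (GRCm38.p6). The table held 25 of the 34 genes, so that Dhx58, Mx1, Mx2, Oas2, Parp14, Parp9, Rtp4, Usp18 and Zbp1 were not searched, and 15 of the 25 (60.0%) had at least 1 match, against 2638 of 27025 genes (9.76%) with a promoter there. With a further A required after the core, 14 members (56.0%) and 1079 genes (3.99%) had a match. The windows below, each on its gene's own strand with overlapping matches merged in capitals, are shown because they hold the letters of the element that ISGF3 is known to bind.
Isg15, chr4:156200872-156200901, minus strand: cgtagGAAAAGGAAACCGAAACAGAAaata
Bst2, chr8:71537581-71537610, minus strand: cattccagGAAAATGAAACTGAAaggctgc
Oas3, chr5:120777713-120777742, minus strand: agggaggaGAAAACGAAAGTGAAgggaggt
Oas1a, chr5:120907524-120907553, minus strand: cttctcggGAAATGGAAACTGAAaatctac
Eif2ak2, chr17:78882533-78882562, minus strand: tccgccggGAAAACGAAACAGAAgagaacc
Ifit1, chr19:34640772-34640801, plus strand: ctgcaggcTTCAGTTTCACTTTCcagtctc
Stat2, chr10:128270266-128270295, plus strand: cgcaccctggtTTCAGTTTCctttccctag
Ifit3, chr19:34583397-34583426, plus strand: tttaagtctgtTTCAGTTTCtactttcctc
Ifit3b, chr19:34607793-34607822, plus strand: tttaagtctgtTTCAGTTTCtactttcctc
The capitals of Isg15 span 21 bases and hold 3 overlapping matches, starting 78 bases before the gene's start. Those of Bst2, Oas3, Oas1a, Eif2ak2 and Ifit1 span 15 bases with 2 overlapping matches each, and those of the last 3 genes hold 1 match. In all, the promoters of the 15 genes held 23 runs of matches, of which 6 had 2 or more overlapping matches. The Ifit3 and Ifit3b windows are identical, as part of a stretch of 169 bases that the 300-base promoters of both genes share. A match is a description of letters and not a measured binding site.

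Library totals ran between 28440098 and 31428419 counts in Nrp1 high and between 23395363 and 35127433 counts in Nrp1 low monocytes. Nrp1 itself was listed at 97.2, 89.7 and 111.3 CPM (counts scaled to a common library size by TMM) in Nrp1 high, against 20.1, 57.7 and 41.5 CPM in Nrp1 low libraries. Its groups did not overlap and its log2 difference was 1.32 ± 0.36 (SE), but edgeR's quasi-likelihood test with Benjamini-Hochberg adjustment gave 0.259; over the alternatives the adjusted p ran between 0.0218 (DESeq2) and 0.785. Of the 10 monocyte markers 0 were called, 5 lay above and 5 below 0, and all were present in every library, with 481.7 ± 16.2 CPM of Csf1r in Nrp1 high against 419.8 ± 46.5 CPM in Nrp1 low, and 2015 ± 252 CPM of Ly6c2 in Nrp1 high against 2068 ± 503 CPM in Nrp1 low (SD, n = 3 each). Ccr2 (log2 0.81 ± 0.26), Fcgr1 (0.42 ± 0.19) and F13a1 (0.77 ± 0.20) lay above in all Nrp1 high libraries, beside 9.5% of all genes tested. Cd14 (-1.33 ± 0.35) lay below in all, beside 10.8% of all genes tested (log2 ± SE). The edgeR adjusted p of these 4 genes ran between 0.234 and 0.445. Of the 15541 genes tested, 106 were called at an adjusted p under 0.05 (0.682%), 1 of them higher (0.00643%) and 105 lower (0.676%) in Nrp1 high monocytes. Neutrophil granule genes had the largest part among the marker lists, with 9 of 12 called lower and a summed level of 9128 to 11710 CPM in Nrp1 high against 50720 to 82670 CPM in Nrp1 low libraries. The other lists with calls, all lower in Nrp1 high, were platelet genes (3 of 9) and NK cell genes (1 of 8, Nkg7). Platelet genes summed to 18.8 to 21.6 CPM in Nrp1 high against 65.4 to 76.4 CPM in Nrp1 low. NK cell genes summed to 57.6 to 91.7 CPM in Nrp1 high against 165.6 to 225.7 CPM in Nrp1 low. Nkg7 made up most of that NK cell sum in every library. It was at 39.94 to 62.05 CPM in Nrp1 high against 139 to 193.1 CPM in Nrp1 low. Of the 8 NK cell genes, 2 lay above and 6 below 0. Without calls, all 10 macrophage markers lay below 0 (363.2 to 420.9 CPM in sum in Nrp1 high against 600.8 to 704.0 in Nrp1 low) and all 8 conventional dendritic cell markers above 0 (44.6 to 45.9 CPM in Nrp1 high against 24.7 to 31.1 in Nrp1 low). Mitochondrial transcripts took 1.29 to 3.01% of counts in Nrp1 high and 0.784 to 1.57% in Nrp1 low libraries. No listed marker was at 0 in all libraries, and the part of other cells in the values below was not tested. In bulk samples fewer cells of a type and less RNA per cell cannot be told apart.

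Across the set, no member was called in either direction by edgeR, and none by DESeq2 or limma-voom. The members lay on both sides of 0, 17 above and 16 below, with a median log2 difference of 0.005 beside 0.01 over all genes tested. Their values ran between -1.02 (Ifit3b) and 1.05 (Mx1), and the lowest adjusted p was 0.285 (Rtp4). At an unadjusted p under 0.05 there was 1 member above 0, Mx1, where 4.5% of all genes were, and there were 2 below 0, Ifit3 and Rtp4, where 6.72% of all genes were. Among the 33 tested members, all 3 Nrp1 high libraries lay above all 3 Nrp1 low libraries in 3, Dhx58, Stat2 and Parp9, beside 9.5% of all genes, and below them in 2, Ifit3b and Rtp4, beside 10.8% of all genes. None of these counts over the tested members exceeded the share found over all genes tested. Ifi44, which was not tested, also lay above in all 3 Nrp1 high libraries.

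The summed level of the 34 genes was 2843, 2655 and 2532 CPM in Nrp1 high, against 2857, 2228 and 3609 CPM in Nrp1 low libraries. Counts of Ifitm3 made up most of this sum in several libraries. Without Ifitm3 the sums were 1171, 1218 and 1148 CPM in Nrp1 high, against 1251, 1114 and 1141 CPM in Nrp1 low, so that the 6 libraries lay close together and the groups overlapped. Roles differed in the sign of their medians: 0.30 for the 4 sensors, 0.06 for the 3 transcription factors, 0.03 for the OAS family with PKR (6 genes), -0.59 for the 4 IFIT genes and 0.94 for the 2 Mx genes. The medians were -0.04 for the ISG15 system (3 genes), -0.44 for nucleotide and RNA enzymes (3), -0.21 for membrane and trafficking genes (3) and 0.42 for the 5 other effectors tested. No role held a called gene.

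**Figure D1:**
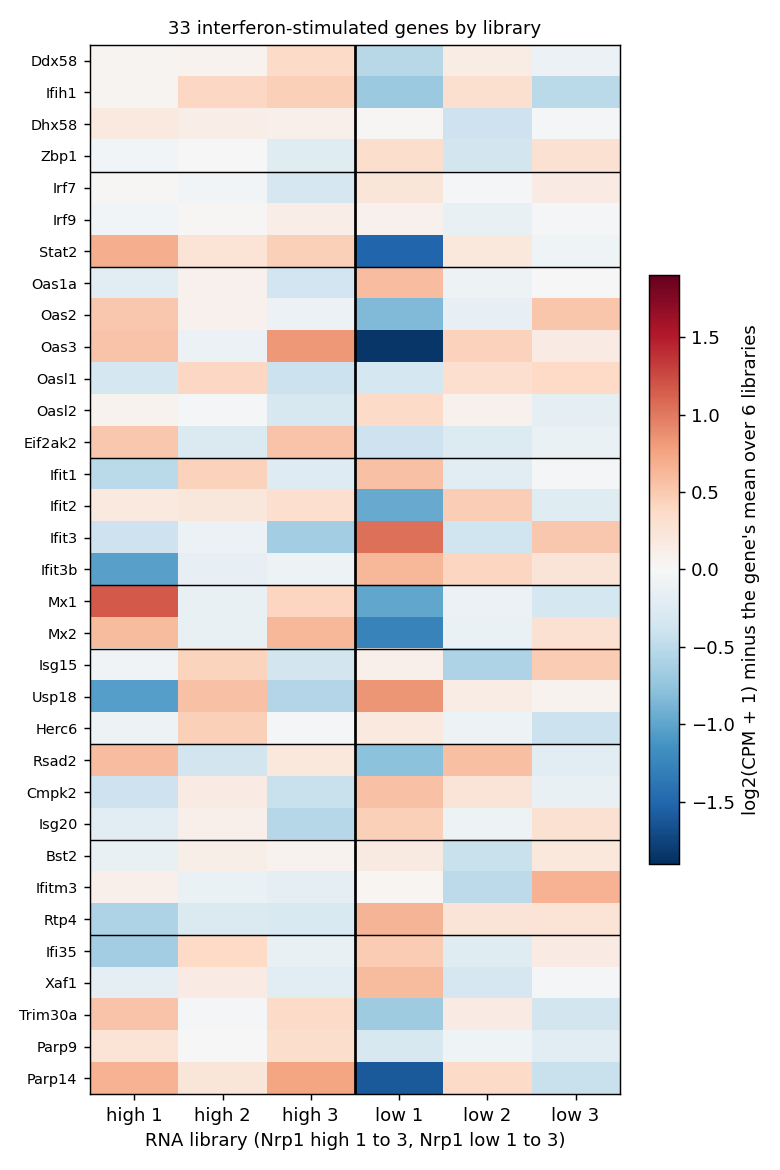
Level of each of the 33 tested genes in each library, as log2(CPM + 1) minus the gene's mean over the 6 libraries, with the 3 Nrp1 high libraries left of the 3 Nrp1 low libraries and lines between roles. No block of rows separates the fractions, and the darkest cells are the low values of Oas3, Parp14 and Stat2 in Nrp1 low replicate 1.

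Among the sensors, Dhx58 (LGP2, a regulator of the RIG-I-like receptors) had 56.3, 54.4 and 52.9 CPM in Nrp1 high, against 50.3, 37.3 and 48.6 CPM in Nrp1 low monocytes. The groups did not overlap, though the lowest Nrp1 high and the highest Nrp1 low library were close. Its log2 difference was 0.26 ± 0.20 (SE; edgeR adjusted p = 0.551). Ddx58 (RIG-I), at 0.33 ± 0.28, and Ifih1 (MDA5), at 0.57 ± 0.33, are the helicases that recognise viral double-stranded RNA, and in both the groups overlapped. Zbp1, a sensor of Z-form nucleic acids, was at -0.22 ± 0.24. The adjusted p of the 4 sensors ran between 0.471 and 0.655.

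Stat2, the subunit that brings the transactivating domain to ISGF3, lies on chromosome 10 (128270498 to 128292853, RefSeq GRCm38.p6). It had 57.4, 42.4 and 48.7 CPM in Nrp1 high, against 11.7, 40.5 and 33.1 CPM in Nrp1 low monocytes. The Nrp1 high libraries all lay above, by a small margin over Nrp1 low replicate 2 and a wide one over replicate 1. The log2 difference was 0.80 ± 0.42 (SE; edgeR adjusted p = 0.458), and 0.43 without Nrp1 low replicate 1. Irf9, the DNA-binding subunit of the same complex, had 94.7, 99.6 and 107.1 CPM in Nrp1 high, against 103.9, 89.0 and 96.3 CPM in Nrp1 low, a log2 difference of 0.06 ± 0.17 (SE) with overlapping groups. Irf7, the factor that amplifies type I interferon genes, had 108.3, 102.7 and 85.5 CPM in Nrp1 high, against 125.5, 104.7 and 119.0 CPM in Nrp1 low. Its groups overlapped and the log2 difference was -0.24 ± 0.19 (SE; edgeR adjusted p = 0.554).

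The OAS proteins make 2′-5′ linked oligoadenylates that activate RNase L. Oas2 (0.26 ± 0.41) and Oas3 (0.62 ± 0.57) lay above 0, and Oas1a (-0.35 ± 0.25), Oasl2 (-0.20 ± 0.23) and Oasl1 (-0.25 ± 0.37), which in the mouse restrains translation of Irf7, lay below. Eif2ak2 (PKR, the kinase that stops translation on double-stranded RNA) was at 0.58 ± 0.29 (log2 ± SE). All 6 had overlapping groups and adjusted p between 0.447 and 0.764. Oas3 had the largest standard error of these. It had 30.1, 18.9 and 36.8 CPM in Nrp1 high against 4.96, 28.2 and 22.9 CPM in Nrp1 low, with Nrp1 low replicate 1 far below the other 5. Oas1a and its near-identical neighbour Oas1g could share reads, so the split between them is uncertain.

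Some IFIT proteins, Ifit1 among them, bind viral RNA through its cap or 5′ end. Ifit3 had 8.02, 9.93 and 6.44 CPM in Nrp1 high, against 23.3, 8.05 and 15.8 CPM in Nrp1 low monocytes. Ifit3b, its near-identical neighbour on chromosome 19 (34607530 to 34613403), had 1.32, 3.27 and 3.43 CPM in Nrp1 high, against 6.35, 5.30 and 4.62 CPM in Nrp1 low. Ifit3 overlapped between fractions through Nrp1 low replicate 2, while Ifit3b did not overlap. The log2 differences were -0.95 ± 0.41 and -1.02 ± 0.45 (SE; edgeR adjusted p = 0.442 and 0.445). Because reads can fall to either gene, their counts were also summed, which was chosen after the data were seen. The sum was 9.34, 13.2 and 9.87 CPM in Nrp1 high, against 29.6, 13.4 and 20.4 CPM in Nrp1 low. Its groups did not overlap, by a small margin between replicate 2 of each fraction. Its mean was 10.8 ± 2.09 CPM in Nrp1 high, against 21.1 ± 8.17 CPM in Nrp1 low (SD, n = 3 each). Its log2 difference was -0.97 ± 0.34 (SE) and its edgeR adjusted p 0.396. The two-sided exact permutation p was 0.1, the smallest that 3 against 3 libraries allow. Any groups of 3 without overlap give it, so it adds nothing to the separation. The neighbours Ifit1 (-0.23 ± 0.44) and Ifit2 (0.43 ± 0.46) had overlapping groups.

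Mx1 and Mx2 are dynamin-like GTPases that trap viral nucleoproteins; the C57BL/6 strain is known to carry a defective Mx1 allele. Mx1 (chromosome 16, 97447035 to 97462906) had 59.3, 23.5 and 35.0 CPM in Nrp1 high, against 12.6, 24.1 and 20.3 CPM in Nrp1 low monocytes. Nrp1 high replicate 1 stood above the other 5 libraries and Nrp1 high replicate 2 lay within the Nrp1 low range. The mean was 2.07-fold higher in Nrp1 high, with a log2 difference of 1.05 ± 0.39 (SE; edgeR adjusted p = 0.420), the largest among the tested members. Mx2 had 5.52, 2.90 and 5.70 CPM in Nrp1 high, against 0.794, 2.96 and 4.24 CPM in Nrp1 low, and a log2 difference of 0.82 ± 0.61 (SE; edgeR adjusted p = 0.538).

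Isg15 encodes the ubiquitin-like modifier of the response and is among the genes that interferon raises most sharply in many cell types. It had 2.50, 3.91 and 1.88 CPM in Nrp1 high, against 2.92, 1.46 and 4.16 CPM in Nrp1 low monocytes, or 58 to 128 counts per Nrp1 high and 35 to 100 counts per Nrp1 low library. The ranges lay across each other and the log2 difference was -0.042 ± 0.52 (SE; edgeR adjusted p = 0.974), with the sign changing when library totals or limma-voom were used. Usp18, which removes Isg15 from its targets and blocks the receptor, was at -0.60 ± 0.45, and Herc6, the mouse ligase for Isg15, at 0.23 ± 0.29, both with overlapping groups. Usp18 varied most within Nrp1 high, at 11.4, 36.7 and 16.4 CPM, against 44.5, 27.3 and 25.7 CPM in Nrp1 low libraries.

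Rsad2 (viperin, which makes a chain-terminating nucleotide) and Cmpk2, the nucleotide kinase beside it on chromosome 12, were at 0.26 ± 0.46 and -0.45 ± 0.26 (log2 ± SE). Isg20, an exonuclease, was at -0.44 ± 0.27. The groups of all 3 overlapped. Ifitm3, which blocks fusion of viruses with the endosome, had 1673, 1436 and 1384 CPM in Nrp1 high, against 1607, 1114 and 2469 CPM in Nrp1 low. The Nrp1 low libraries held both its lowest and its highest value, and its log2 difference was -0.21 ± 0.30 (SE; edgeR adjusted p = 0.743), with the sign changing when library totals were used. Bst2 (tetherin, which holds budding virions at the membrane and also marks plasmacytoid dendritic cells) had 33.9, 40.2 and 39.3 CPM in Nrp1 high, against 42.3, 27.5 and 43.3 CPM in Nrp1 low, and a log2 difference of 0.005 ± 0.25 (SE; edgeR adjusted p = 0.995). Of the plasmacytoid dendritic cell list, 0 of the 8 markers tested were called, and the summed level was 148.4 to 183.2 CPM in Nrp1 high, against 141.8 to 190.9 CPM in Nrp1 low. Most of that sum in every library came from Ly6d and Bst2. Of the 8, 6 lay above 0, while Ly6d (-0.53 ± 0.26) and Cox6a2 (-1.01 ± 0.80) lay below. Siglech, Ccr9 and Tcf4 lay above in all Nrp1 high libraries, without overlap, beside 9.5% of all genes tested. Their log2 differences were 1.11 ± 0.47, 1.94 ± 1.12 and 0.78 ± 0.27 (SE). The defining marker Siglech was at 3.43 to 7.09 CPM in Nrp1 high, against 1.41 to 2.99 CPM in Nrp1 low.

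Rtp4, a chaperone of membrane receptors that interferon induces, is annotated on chromosome 16 from 23520219 to 23614222. It had 24.1, 30.1 and 29.9 CPM in Nrp1 high, against 57.7, 43.4 and 44.3 CPM in Nrp1 low monocytes. Every Nrp1 high library lay below every Nrp1 low library, and the mean was 1.73-fold lower in Nrp1 high (28.0 ± 3.41 CPM in Nrp1 high against 48.5 ± 8.01 CPM in Nrp1 low, SD, n = 3 each). The log2 difference of -0.79 ± 0.23 (SE) had an unadjusted p of 0.0079 and an edgeR adjusted p of 0.285. Over the alternatives its adjusted p ran between 0.0712 (DESeq2) and 0.796, so it was not called under any of them.

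Among the other effectors, Parp9, the partner of the ubiquitin ligase Dtx3l, had 41.2, 33.9 and 43.4 CPM in Nrp1 high, against 27.6, 32.0 and 29.2 CPM in Nrp1 low. The groups did not overlap, and the log2 difference was 0.42 ± 0.21 (SE; edgeR adjusted p = 0.454). Parp14, an ADP-ribosyltransferase encoded nearby, had 56.4, 41.5 and 60.1 CPM in Nrp1 high, against 11.0, 45.6 and 26.1 CPM in Nrp1 low, which overlapped through Nrp1 low replicate 2. Its log2 difference was 0.93 ± 0.46 (SE; edgeR adjusted p = 0.446), and 0.55 without Nrp1 low replicate 1. Trim30a, a mouse regulator of NF-kB signalling with near-identical neighbours, was at 0.57 ± 0.27, Ifi35, the partner of Nmi, at -0.24 ± 0.30, and Xaf1, a promoter of apoptosis, at -0.22 ± 0.29, all with overlapping groups. Ifi44 was too low to be tested, with 6, 17 and 17 counts in Nrp1 high and 0 in each Nrp1 low library. Against a floor of 3 counts over the Nrp1 low group, its pooled level was 11.2-fold higher in Nrp1 high monocytes. The floor allows for counting error of the 0 counts only. The error of the 40 Nrp1 high counts and the variation between libraries are left out, so the value is not a lower limit. Without the filter the edgeR adjusted p of Ifi44 was 0.486.

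**Figure D2:**
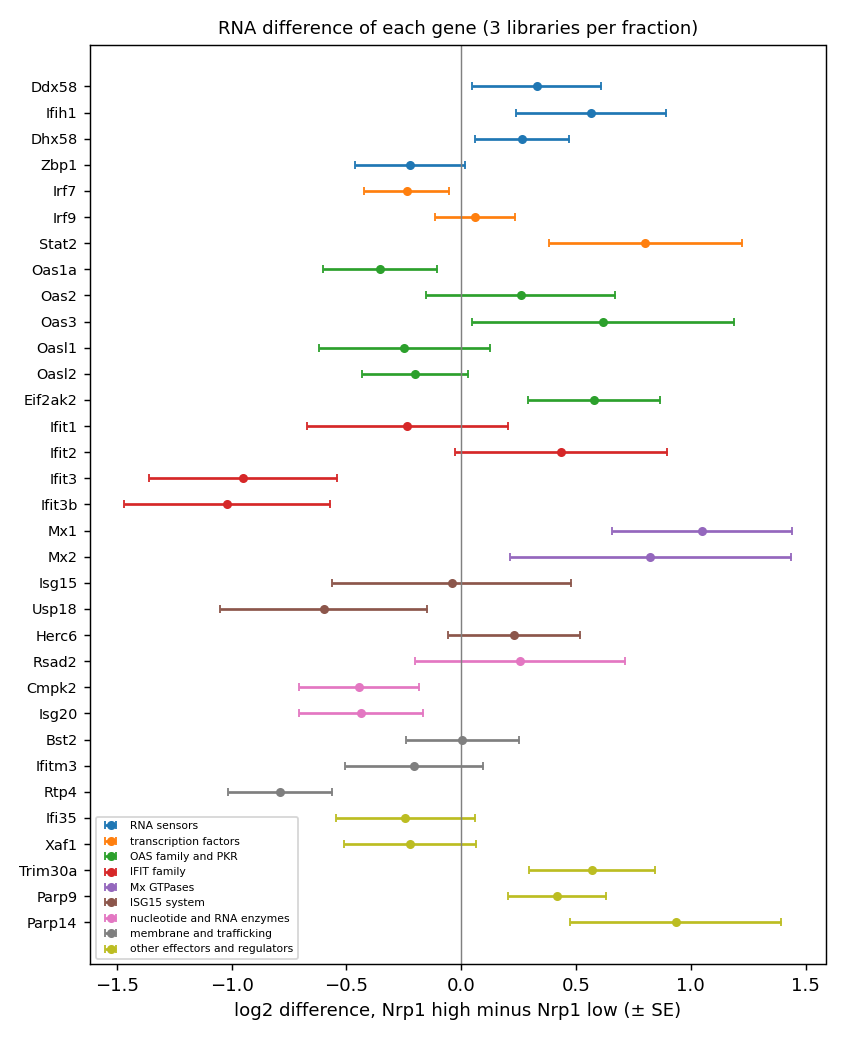
Log2 difference in RNA, Nrp1 high minus Nrp1 low, for each of the 33 tested genes with its standard error, coloured by role. The values run between -1.02 for Ifit3b and 1.05 for Mx1 around a median of 0.005, and no gene was called.

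A library stood apart in many of these genes. Nrp1 low replicate 1 held the lowest value of 13 of the 33 genes and the highest value of another 13 (39.4% each), beside 34.2% and 27.8% of all genes tested. The 13 genes lowest there were Ddx58, Ifih1, Stat2, Oas2, Oas3, Eif2ak2, Ifit2, Mx1, Mx2, Rsad2, Trim30a, Parp9 and Parp14. All 13 had log2 differences above 0, with a median of 0.57, and without that library 11 stayed above 0, with a median of 0.37. The 13 genes highest there, among them Irf7, Oas1a, Ifit3, Ifit3b, Usp18, Cmpk2 and Rtp4, all lay below 0 with a median of -0.35, and without it 11 stayed below, with a median of -0.18. A low value in 1 of the 3 Nrp1 low libraries moves the difference up by arithmetic, and a high value moves it down.

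The length of the genes moved with this split. The genes lowest in Nrp1 low replicate 1 spanned 13.7 to 56.2 kb (median 26.0) and those highest there 3.32 to 94.0 kb (median 10.7). Of the genes tested, 14161 of 15541 (91.1%) had a RefSeq span. Among the 9 members of 20 to 50 kb, 8 lay above 0, with a median of 0.58 beside 0.02 for all 3616 genes of that span, and 8 had their lowest value in that library. Among the 16 members of 5 to 20 kb, 5 lay above 0, and the median was -0.23 beside -0.16 for all 4561 genes. The 4 members up to 5 kb had a median of -0.13 beside -0.15 for all genes of that span, and the 4 members over 50 kb a median of 0.40 beside 0.33. Of the 4 over 50 kb, 3 lay above 0 and Rtp4, the gene of 94.0 kb, below. The authors' annotation also places a start of Rtp4 at chr16:23609710-23610109, near the upper end of its span, so its span class is uncertain. Without Nrp1 low replicate 1, a fit whose use by span was added after the data were seen, the members' medians were -0.10, -0.05, 0.37 and 0.38 from the shortest to the longest class, and those of all genes -0.09, -0.09, 0.02 and 0.16. The gap between long and short members was smaller there, and its cause was not tested.

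**Figure D3:**
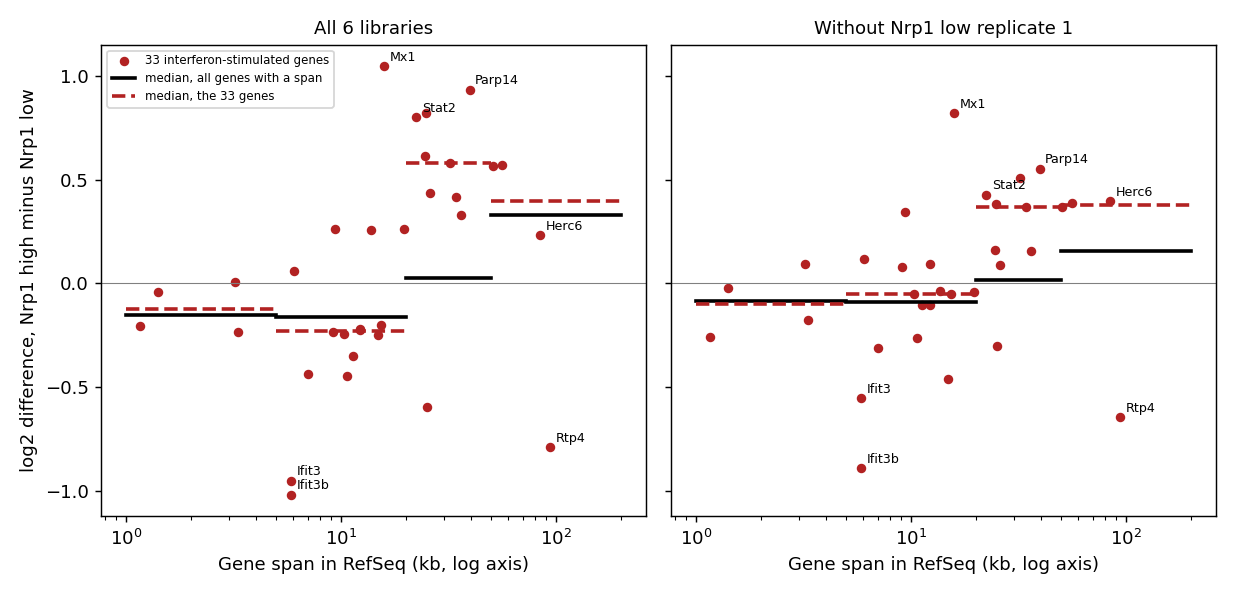
Log2 difference in RNA, Nrp1 high minus Nrp1 low, against the span of each gene in kb on a log axis, from all 6 libraries on the left and without Nrp1 low replicate 1 on the right; bars are medians within 4 span classes. Members of 20 to 50 kb had a median of 0.58 with all libraries and 0.37 without that one, while all genes of that span had 0.02 in both.

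Other genes of the pathway, both those upstream of the set and other interferon targets, were examined as lists of 140 symbols, of which 130 were in the table and 126 were tested; none was called in either direction by edgeR, DESeq2 or limma-voom. In all, 57 lay above 0 and 69 below, with a median of -0.11. At an unadjusted p under 0.05 there were 4 above and 11 below 0 of the 126, beside 4.5% and 6.72% of all genes. Of the 11 ligands listed, 4 were in the table and 1 could be tested. Ifng, the interferon of T and NK cells, had 27, 0 and 15 counts in Nrp1 high and 2, 0 and 22 in Nrp1 low libraries, and Ifnb1 had 3 counts, all in Nrp1 high replicate 2. Ifnk had 0, 12 and 11 counts in Nrp1 high and 0 in each Nrp1 low library. Ifnz had 0, 1 and 1 in Nrp1 high and 2, 2 and 1 in Nrp1 low libraries.

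The 9 receptor chains and kinases had a median of 0.11, with 5 above and 4 below 0. Ifnar2, the binding chain of the type I receptor, had 199.2, 180.6 and 170.3 CPM in Nrp1 high, against 141.0, 142.3 and 152.5 CPM in Nrp1 low, without overlap and with a log2 difference of 0.34 ± 0.17 (SE; edgeR adjusted p = 0.453). Ifnar1 (0.43 ± 0.22), Tyk2 (0.69 ± 0.33) and Jak1 (0.11 ± 0.35) had overlapping groups, and the sign of Jak1 changed to -0.197 when Nrp1 low replicate 1 was left out. The receptor chain for interferon gamma, Ifngr1, averaged 394.1 ± 105 CPM in Nrp1 high, against 630.6 ± 162 CPM in Nrp1 low (SD, n = 3 each), a log2 difference of -0.68 ± 0.27 (SE; edgeR adjusted p = 0.433). Il10rb, shared by the receptors for interferon lambda and interleukin-10, was at -0.61 ± 0.25. Ifnar1, Ifnar2, Tyk2 and Jak1 are named for their place in the pathway and not by the rule for named genes.

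Within the 9 listed transcription factors, the lowest p belonged to Batf2 (-1.56 ± 0.60), an interferon gamma target, and Irf2 (0.52 ± 0.24), which can repress the response element. Batf2 rested on 15 to 33 counts per Nrp1 high library. Of the 13 inhibitors, 5 lay above and 8 below 0, and Socs3, the feedback inhibitor of JAK signalling, was at -0.98 ± 0.42 and Ptpn6, a tyrosine phosphatase, at -0.57 ± 0.28. Of the 16 nucleic acid sensing genes, 10 lay above 0; Cgas, the cytosolic DNA sensor, had 44.4, 30.3 and 40.9 CPM in Nrp1 high, against 12.2, 26.2 and 26.3 CPM in Nrp1 low, without overlap (log2 0.84 ± 0.34, SE; edgeR adjusted p = 0.434). Myd88, the Toll-like receptor adaptor, was at -0.53 ± 0.27.

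Interferon-stimulated genes outside the set split as well, with 26 of 62 above and 36 below 0 and a median of -0.13. Ifi203, of the DNA-binding Ifi200 family, had the lowest p, with 100.2 ± 12.3 CPM in Nrp1 high, against 56.8 ± 15.2 CPM in Nrp1 low (SD, n = 3 each) and a log2 difference of 0.82 ± 0.24 (SE; edgeR adjusted p = 0.301). Slfn1, a Schlafen gene, was at -0.57 ± 0.20. The list of GTPases induced by interferon gamma, which attack the vacuoles of intracellular pathogens, also held Ciita, which is not one of these GTPases. Of the 16 genes tested in this list, 5 lay above 0, Ciita (0.50 ± 0.54) among them, and 11 below, with a median of -0.32. Igtp averaged 39.4 ± 5.89 CPM in Nrp1 high, against 63.0 ± 14.0 CPM in Nrp1 low (SD, n = 3 each), a log2 difference of -0.68 ± 0.24 (SE; edgeR adjusted p = 0.390), and Gbp8 was at -0.91 ± 0.33. Over all these lists, 13 genes had all Nrp1 high libraries above and 19 all below the Nrp1 low libraries of the 126 tested, beside 9.5% and 10.8% of all genes.

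In ATAC-seq, the authors' deposited table held for every region a log2 fold with its p-value and FDR, and no value per library. The 59 regions belonged to 29 of the 34 genes, 1 to 5 each (median 2); none was assigned to Ifi44, Ifit3, Isg15, Oas1a or Oas2. Of the 59, 4 had in the authors' deposited table an FDR under 0.05, beside 7.55% of all 40796 regions. Of the 4, 2 were higher (2.56% of all regions) and 2 lower (4.99%) in Nrp1 high monocytes, taking the fold as high against low from the name of the comparison. The median of the authors' log2 fold was -0.08 over the 59 regions and -0.09 over all regions.

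The region with the lowest FDR, chr5:114882866-114883265, was assigned to Oasl2 but lies upstream of it (-13671 bases from its start), in a 3′ UTR by the authors' annotation and within 4930519G04Rik in RefSeq. The authors' deposited table gave it a log2 fold of 1.46 and an FDR of 0.00571. At the promoter of Oasl2, the same table had 1 region with -1.08 (chr5:114897349-114897748, FDR 0.0509) and another with 0.41 (FDR 0.677), so regions given to this gene lay on both sides of 0. Ddx58 had 5 regions. The authors' deposited table gave chr4:40205393-40205792, inside the gene towards its 3′ end though 2751 bases from a transcript start in the authors' annotation, a log2 fold of 1.23 and an FDR of 0.0220, and a region beyond the gene 0.97 (FDR 0.116). Another of them, chr4:40217928-40218327 within the gene, had -0.75 (FDR 0.226), which did not pass. A region of Usp18, chr6:121261203-121261602, had -0.69 (FDR 0.204) in the authors' deposited table.

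Both regions that were lower lay at promoters. The authors' deposited table gave the Mx2 promoter, chr16:97535807-97536206, a log2 fold of -0.42 (FDR 0.0461), and the Parp9 promoter, chr16:35938840-35939239, which also lies within Dtx3l, a log2 fold of -0.49 (FDR 0.0407). Among the 36 member regions within 1 kb of a start, 2 were called, beside 5.24% of the 15510 regions of that class, and 13 lay above and 23 below 0. Their median in the authors' deposited table was -0.11, beside -0.05 for all regions of the class. The 17 member regions outside promoters had a median of 0.11, beside -0.14 for all such regions, and 1 was called, beside 9.1% of the 21444 regions of that class.

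**Figure D4:**
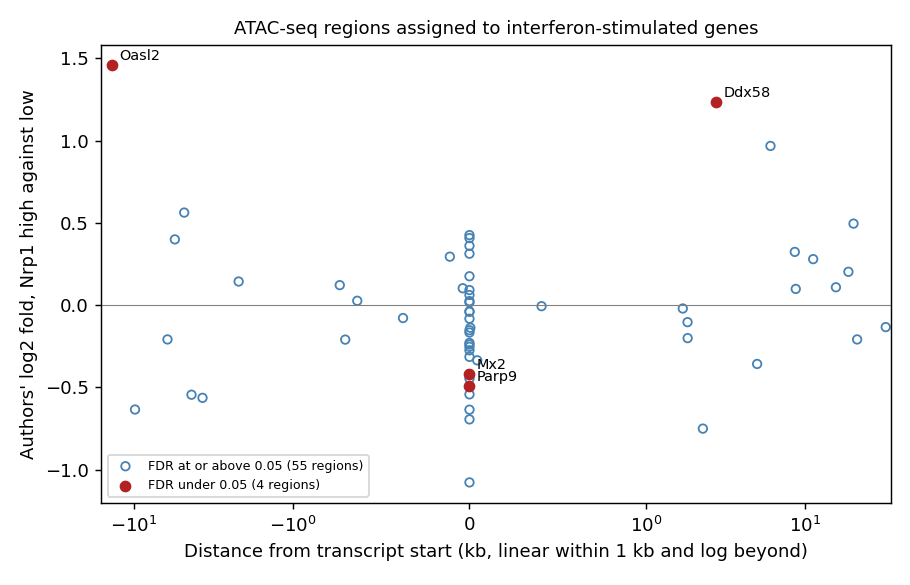
The authors' deposited log2 fold of each of the 59 regions, Nrp1 high against low, against its distance from a transcript start in kb, with filled points for an FDR under 0.05. The 4 filled points are the Oasl2 region at 1.46, the Ddx58 region at 1.23 and the promoters of Mx2 at -0.42 and Parp9 at -0.49.

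The response element could be placed in the open regions for part of the set. Of the 25 genes with a promoter window, 19 had a window that overlapped a listed region by at least 1 base, and 11 of the 23 runs of matches, in 8 genes, lay inside one. In the authors' deposited table the region that holds the printed Bst2 element had a log2 fold of 0.09 (FDR 0.731), that of Oas3 0.31 (FDR 0.432), that of Eif2ak2 -0.23 (FDR 0.477) and that of Ifit1 -0.64 (FDR 0.170). None of these passed. The printed elements of Isg15, Oas1a, Ifit3 and Stat2 lay in no listed region, while the identical Ifit3b window lay in a region with 0.29 (FDR 0.511).

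RNA and promoter accessibility were set side by side for the 27 genes with a region within 1 kb of a start, averaging the authors' deposited log2 folds per gene. RNA and promoter were both above 0 in 6 genes and both below 0 in 9. RNA was above and the promoter below 0 in 9, and the reverse held in 3. The sign was thus shared in 15 genes and opposite in 12, which would be 12 and 15 if the deposited fold ran low against high. Some signs in both classes rested on values close to 0. Among shared signs, the promoter of Dhx58 was at 0.004 and the RNA of Bst2 at 0.005. Stat2 was at 0.068 as the mean of 2 regions with -0.039 and 0.175. Among opposite signs, the promoter of Zbp1 was at 0.044. Mx1 had an RNA log2 difference of 1.05 and a promoter fold of -0.42 (FDR 0.0946), Mx2 0.82 and -0.42, Parp14 0.93 and -0.54 (FDR 0.0728), and Parp9 0.42 and -0.49. In Ifit3b, whose promoter reads could be shared with Ifit3, the signs were the other way round, -1.02 in RNA and 0.29 at the promoter. Rtp4 was below 0 in both, -0.79 in RNA and -0.45 at the promoter (FDR 0.419). Since no member was called in RNA, no gene passed both thresholds.

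**Figure D5:**
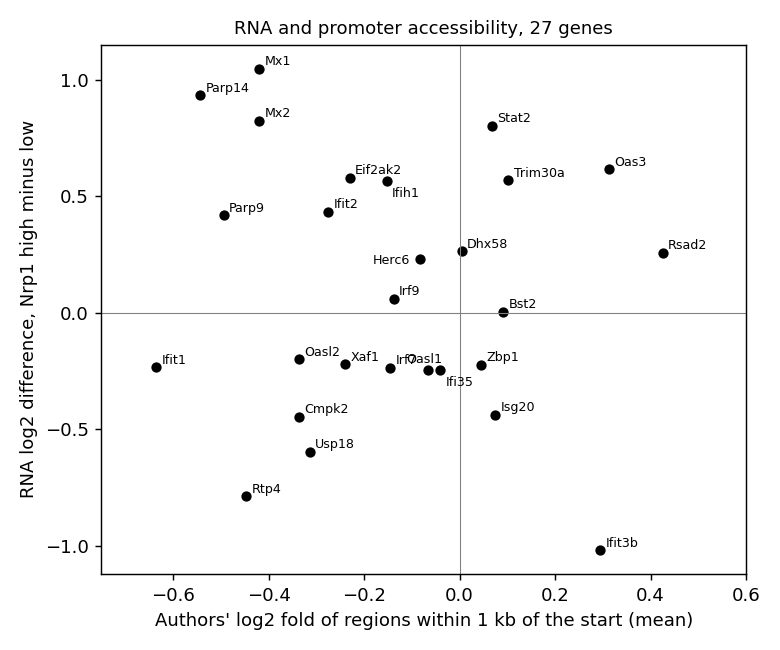
RNA log2 difference of 27 genes, Nrp1 high minus Nrp1 low, against the mean of the authors' deposited log2 folds of their regions within 1 kb of a start. The upper left, with RNA above and promoter below 0, holds 9 genes including Mx1, Mx2, Parp9 and Parp14, and the lower right holds 3.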

How the data were processed

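The deposited RNA values are estimated counts per gene from 6 libraries. All of them are whole, and rounding left them as they were. Their layout matches StringTie's own count script, which turns coverage into counts, so counting error may exceed what the numbers imply. HISAT2 and StringTie are named, without versions, in the submitters' processing notes, with GRCm38 as the build, and the sources used here give no strand setting. Library preparation used template switching from low input and paired reads of 150 bases, per the labels' protocols. The labels speak of pooled RNA. For ATAC-seq, the authors deposited for each region a log2 fold with its p-value and FDR. The submitters' processing notes list ChIPseeker, DiffBind, MACS2, DESeq2, edgeR, BWA, Picard and Trimmomatic among the tools. The sources used here do not say which of the 10 libraries entered or if a transposase shift was applied. The depth is unknown. No column states the direction of the fold. The labels name a DESeq2 table while the deposited one is named for edgeR. Region coordinates are those of the files (GRCm38), and 99.2% of regions are 400 bases wide.

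Genes kept by filterByExpr were scaled by TMM and tested in edgeR 4.0.16 (R 4.3.3, robust quasi-likelihood, group as the term, Benjamini-Hochberg over all genes tested, called under 0.05), after the procedure was tested on simulated data. In that test edgeR recovered 115 of 200 genes given a log2 difference of 2 in either direction, with 7 false calls. Differences are Nrp1 high minus Nrp1 low. Alternatives were RLE factors, library totals, no filter or a mean of at least 10 CPM, DESeq2 1.42.0 on the filtered genes, limma-voom (limma 3.58.1), a replicate block, leaving out each library, other FDR or p thresholds, regions within 3000 bases and a longer motif. Values per library are given for Nrp1, for the 2 members with the largest difference in each direction, for members whose groups do not overlap and for Stat2, Irf7, Irf9, Isg15, Ifitm3 and Bst2; 2 genes of lowest p are named per pathway list, and the member regions of lowest FDR and 3 largest folds per direction. Other values per library were added after they were seen. The members and lists were chosen with earlier results of these data known. Levels of different genes are not compared, since no transcript lengths were used.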

Additional observations from a re-analysis of the deposited data

How the results depend on the processing

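The count of called members was 0 under every alternative run, as was that of the other pathway genes. The members' median log2 difference was 0.211 with library totals, where all genes shifted by 0.189, and ran between -0.073 and 0.124 when 1 library was left out. Over all genes, DESeq2 called 403 (77 higher, 326 lower) and the fit with the replicate block 0. Same-numbered libraries correlated at -0.342, -0.394 and 0.032 in their deviations from the mean of their group. The labels state no pairing, and these values cannot decide if libraries of the same number belong together. Leaving out Nrp1 high replicate 1, 2 or 3 gave 28, 50 or 0 calls, and leaving out Nrp1 low replicate 1, 2 or 3 gave 125, 81 or 29. Isg15 turned to 0.171 with library totals and 0.010 with limma-voom, and Ifitm3 to 0.007 with library totals. When 1 library was left out, Isg15 ran between -0.365 and 0.329, Ifitm3 -0.446 and 0.136, Rsad2 -0.038 and 0.756, Bst2 -0.180 and 0.112, Oas2 -0.042 and 0.713, Ifit1 -0.633 and 0.081, Xaf1 -0.410 and 0.093, Ifng -0.415 and 3.59, and Jak1 -0.197 and 0.536. The causes were not tested. The other 26 of 33 members kept their sign in all 6 such fits. In the authors' deposited table, 1 member region and 1000 of all regions passed an FDR of 0.01, 16 and 9677 a p-value under 0.05, and within 3000 bases of a start 1131 regions were called and the members' median fold was -0.094. With 3 libraries per group and a spread of this size, a missed threshold does not show that a gene did not differ.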

Other observations

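Some neighbouring families of interferon-inducible genes, named after their values were seen, lay on both sides of 0 within 1 locus or all on 1 side, and none of their genes was called. Of the 9 Ifi200 genes on chromosome 1, which bind DNA in the nucleus and cytosol, 7 lay above and 2 below 0. Ifi207 had 71.7, 64.7 and 76.4 CPM in Nrp1 high, against 53.3, 57.6 and 35.1 CPM in Nrp1 low, and Ifi209 had 158.0, 126.5 and 126.7 CPM in Nrp1 high, against 88.1, 109.0 and 86.4 CPM in Nrp1 low. Neither overlapped between fractions, and the log2 differences were 0.54 ± 0.24 and 0.54 ± 0.20 (SE; edgeR adjusted p = 0.442 and 0.402). Their neighbour Ifi208 lay at -0.64 ± 0.42 and did not overlap in the other direction. It had 1.81 to 1.93 CPM in Nrp1 high, against 2.26 to 3.88 CPM in Nrp1 low. Of all genes tested, 9.5% lay above and 10.8% below without overlap. Reads of the similar Ifi200 genes may be split between them.

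The 3 Ifitm genes beside Ifitm3 on chromosome 7 all lay below 0, between -0.72 and -0.44. Ifitm2 had 497.4, 525.6 and 432.3 CPM in Nrp1 high, against 806.8, 538.5 and 1056 CPM in Nrp1 low, without overlap (log2 -0.72 ± 0.27, SE; edgeR adjusted p = 0.414). Ifitm6 was at -0.72 ± 0.29 with overlapping groups. The 6 Schlafen genes on chromosome 11 were split, with Slfn1 and Slfn2 at -0.57 and -0.39 and Slfn8 and Slfn9 at 0.76 and 0.80. Slfn8 and Slfn9 had their lowest value in Nrp1 low replicate 1, and both overlapped between fractions. The 3 Oas1 genes beside Oas1a lay between -0.61 and -0.41, the same side as Oas1a.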
